A study of Mus musculus with 5 samples.

Results

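The genes described are 10 of the 41028 gene names in the deposited count tables, chosen by name as a set for glycolysis and the response to low oxygen: Slc2a1, Hk2, Aldoa, Pgk1, Eno1, Pkm, Ldha, Pdk1, Bnip3 and Ndrg1. The set was not filtered on measured values, but it was chosen with earlier results of these data known. All 10 were measured in all 5 libraries. The cells came from mammary tumours of PyMT mice, in which the polyoma virus middle T antigen drives tumours of the mammary epithelium. The labels give no strain, age or number of animals. All tumours were digested and enriched for viable cells, then loaded on 10x Genomics Chromium 3' v2 droplets or on BD Rhapsody microwells with the whole transcriptome assay. The fresh 10x group has 2 libraries, replicate 1 and replicate 2. The stored 10x group has 1 library, titled 24 h, from a digest kept overnight at 4 °C until viability measured by flow cytometry had dropped by 20% or more. BD 1 is 1 library titled fresh. BD 2 is 1 library with conflicting labels, a title that says fresh and files named for 24 h, so it stands alone and no storage state is assumed for it. Where a pair of values is given for the BD libraries, BD 1 comes first. Nothing in the labels says whether libraries came from separate tumours, so the spread between the fresh 10x replicates may be technical.

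Glycolysis turns glucose into pyruvate in the cytosol, and lactate dehydrogenase turns pyruvate into lactate. When oxygen is low, the transcription factor HIF-1, a dimer of Hif1a and Arnt, is no longer degraded and activates genes for glucose uptake, glycolysis and the restraint of mitochondrial pyruvate use. Tumour cells often run this programme also where oxygen is present. Among the members, Slc2a1 encodes the glucose transporter GLUT1, and Hk2 encodes hexokinase 2, which traps glucose as glucose-6-phosphate. Aldoa, Pgk1, Eno1 and Pkm encode the later enzymes aldolase A, phosphoglycerate kinase 1, enolase 1 and pyruvate kinase, and Ldha encodes lactate dehydrogenase A. Pdk1 encodes a kinase that inhibits pyruvate dehydrogenase, Bnip3 a mitochondrial protein of mitophagy and cell death, and Ndrg1 a stress and differentiation protein induced by low oxygen. In what follows Aldoa, Pgk1, Eno1, Pkm and Ldha are called the glycolysis members, and Slc2a1, Hk2, Pdk1, Bnip3 and Ndrg1 the hypoxia members, although Slc2a1 and Hk2 also act in glycolysis.

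HIF-1 binds DNA at a core of 5 bases, ACGTG. This core and its variant GCGTG were searched on both strands in the 250 bases before each annotated gene start, in sequences from RefSeq (build GRCm38.p6), where 9 of the 10 members had at least 1 start. Of these 9 members, 7 had ACGTG before at least 1 start, and 8 of their 16 windows held it. Of all 32851 windows of that length in the table, 16.6% held ACGTG and 28.2% held GCGTG. A palindromic CACGTG, the E-box, contains ACGTG on each strand and was present in 6.02% of windows. A window each of Hk2, Ldha, Pgk1 and Slc2a1 is shown because these genes carry the storage, class and heterogeneity results below. Each is written 5′ to 3′ on the strand of its gene, ending at the base before the start, with the bases of every ACGTG match on either strand in capitals.
Hk2, chr6:82774455-82774704, minus strand: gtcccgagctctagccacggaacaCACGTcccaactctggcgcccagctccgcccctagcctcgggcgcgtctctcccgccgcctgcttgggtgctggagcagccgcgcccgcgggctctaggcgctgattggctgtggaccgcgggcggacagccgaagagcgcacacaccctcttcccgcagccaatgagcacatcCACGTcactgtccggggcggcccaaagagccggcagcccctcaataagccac
Ldha, chr7:46845554-46845803, plus strand: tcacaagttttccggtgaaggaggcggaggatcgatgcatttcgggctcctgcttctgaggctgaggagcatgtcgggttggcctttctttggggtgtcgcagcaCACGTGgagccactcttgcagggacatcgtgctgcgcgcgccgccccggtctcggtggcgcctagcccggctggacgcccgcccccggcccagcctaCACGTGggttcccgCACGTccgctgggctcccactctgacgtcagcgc
Pgk1, chrX:106186850-106187099, plus strand: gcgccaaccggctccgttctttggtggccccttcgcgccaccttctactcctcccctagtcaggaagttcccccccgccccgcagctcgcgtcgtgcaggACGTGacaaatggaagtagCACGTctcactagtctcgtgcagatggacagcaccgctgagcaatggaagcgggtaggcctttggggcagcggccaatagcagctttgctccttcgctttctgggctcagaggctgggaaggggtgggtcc
Slc2a1, chr4:119108495-119108744, plus strand: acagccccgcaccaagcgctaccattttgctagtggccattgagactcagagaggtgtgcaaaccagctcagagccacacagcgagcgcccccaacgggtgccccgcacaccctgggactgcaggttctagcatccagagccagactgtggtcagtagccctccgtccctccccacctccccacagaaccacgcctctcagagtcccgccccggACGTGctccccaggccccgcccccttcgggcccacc
The Ldha window shown held 5 matches, of which 4 came from 2 CACGTG sequences, and the other Ldha window held 0. The Hk2 and Pgk1 windows held 2 each, and the Slc2a1 window held 1. Aldoa, Pkm and Bnip3 also had ACGTG before a start, whereas Eno1 and Pdk1 had GCGTG but no ACGTG. Windows 1 and 2 of the 3 Aldoa windows overlap and hold the same match. A match is a description of the sequence and not evidence of binding.

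The libraries held 29166129 and 30027178 UMIs in fresh 10x, 53381382 in stored 10x and 59957945 and 49966022 in the BD libraries, where a UMI counts a captured molecule. Cells were clustered without the members and without 68 other glycolysis and hypoxia genes, and clusters were named from fixed marker lists. Epithelial-like cells with at least 3000 UMIs numbered 1316 and 1300 in fresh 10x, 2528 in stored 10x and 2627 and 2882 in the BD libraries, and each of their clusters had 6 to 8 of the 8 epithelial markers in at least 30% of its cells. Levels are given as UMIs per 10000 UMIs of the cells concerned, with counting error only unless a spread between libraries is stated. The median share of mitochondrial UMIs in epithelial-like cells was 6.63% and 7.39% in fresh 10x, 7.22% in stored 10x and 15.6% and 19.5% in the BD libraries. A cluster of 1198 cells with a median of 52.7% mitochondrial UMIs stayed unnamed. The doublet caller marked at most 21 cells in a library, and these were left out. With them kept, the number of genes called for storage in epithelial-like cells was 219 in place of 117, while Hk2 was called both ways. Cell barcodes shared between libraries numbered 24 between BD 1 and BD 2 and at most 5 between any other pair.

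In epithelial-like cells Hk2 was the member called for storage. Its level there was 0.142 UMIs per 10000 in fresh 10x replicate 1 and 0.180 in replicate 2, and it was 0.477 in stored 10x. The stored library lay above both fresh libraries, whose own levels differed by less than their distance to it. This gave a log2 fold change of 1.58 ± 0.15 (SE), a 2.99-fold rise, with an adjusted p of 0.00842 in edgeR's quasi-likelihood test (Benjamini-Hochberg adjustment over 14003 genes). Of the 10 members, only Hk2 was past the threshold of 0.05, where 0.836% of all genes tested passed. With 2 fresh libraries and 1 stored library the fit has 1 residual degree of freedom, so the stored library is assumed to vary as the fresh ones do. Storage cannot be told apart from any other difference of the 1 stored library, for example in its tumour. This holds for the storage comparison in every class. The test pools the spread over genes and does not rest on the spread of Hk2 alone. The log2 fold change was 1.43 without replicate 1 and 1.73 without replicate 2, in each case with no test.

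**Figure D1:**
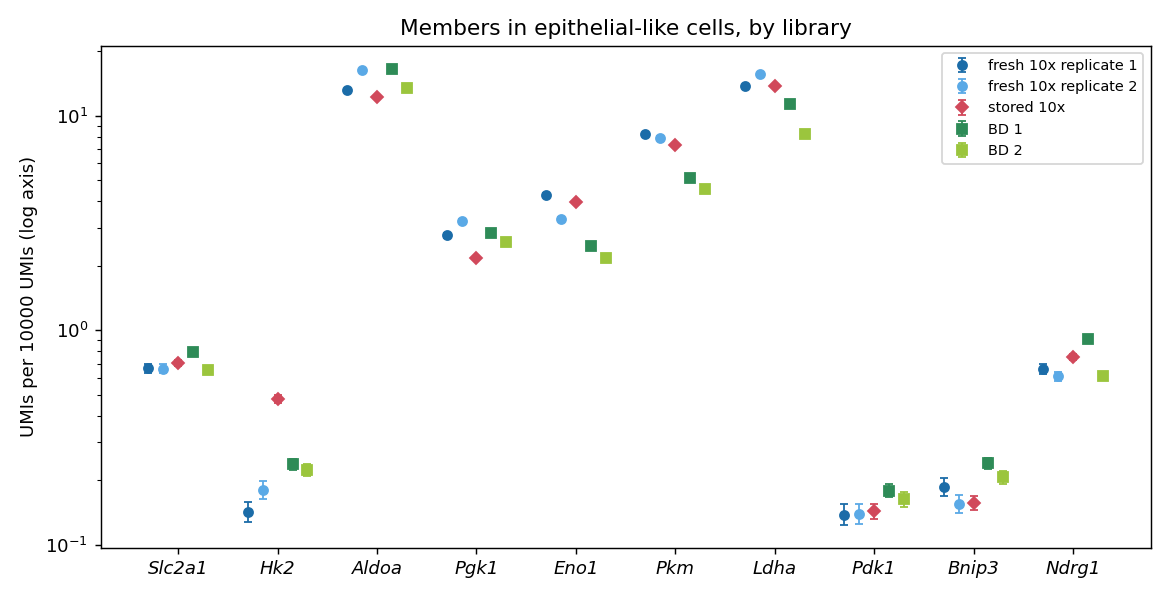
Levels of the 10 members in epithelial-like cells, as UMIs per 10000 UMIs on a log axis, for the 5 libraries. Bars are exact 95% Poisson intervals for counting error, and the stored 10x point of Hk2 (0.477) lies above the 4 others, while for Eno1, Pkm and Ldha the BD libraries hold the lowest points.

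The rise of Hk2 was seen throughout the epithelial clusters. In all 10 epithelial-like clusters with at least 20 cells in each 10x library, the stored level lay above both fresh levels. The ratio of the stored level to the fresh mean ranged from 1.70 in the cluster led by Tspan1 and Aqp5 to 4.39 in the basal cluster led by Krt5 and Krt14. These clusters share their libraries and are not replicates. After every cell was thinned to 3000 UMIs, 4.33% and 6.31% of fresh epithelial-like cells had at least 1 Hk2 UMI, against 11.3% in stored 10x. Without thinning the shares were 17.6%, 23.4% and 35.4%, at median totals of 12293, 13338 and 11708 UMIs. In endothelial-like cells of the same libraries they were 0 of 171 cells, which allows a share of up to 1.75% of cells with a UMI and sets no limit on cells that express Hk2, then 3.96% and 6.82%, at median totals of 6259, 7079 and 4510.5 UMIs. The largest count in a thinned cell was 3 and 2 in the fresh libraries and 9 in the stored one.

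Fibroblast-like cells showed the same direction. Their Hk2 level was 0.163 and 0.208 in fresh 10x and 1.08 in stored 10x, so the groups did not overlap. Their log2 fold change was 2.57 ± 0.20 (SE, adjusted p = 9.21e-05, edgeR quasi-likelihood test), in a comparison where 9.17% of 11210 genes were called. The 2 fibroblast clusters were present in different proportions, with 37 and 44 cells of the Clec3b and Efemp1 cluster in fresh 10x against 238 in stored 10x. Within that cluster the log2 fold change of Hk2 was 2.44 ± 0.31, and within the Spon1 and Thbs4 cluster it was 2.42 ± 0.27, both called by edgeR's quasi-likelihood test. Ndrg1 was also called in fibroblast-like cells (log2 fold change 1.13, adjusted p = 0.0125, edgeR quasi-likelihood test), with levels of 0.167 and 0.208 in fresh 10x and 0.406 in stored 10x. Within the Clec3b and Efemp1 cluster alone its log2 fold change was 0.20 with an adjusted p of 0.890 in the same edgeR test, and within the Spon1 and Thbs4 cluster it was 1.46 with an adjusted p of 0.00620. DESeq2 did not call Ndrg1 over all fibroblast-like cells (adjusted p = 0.624).

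In macrophage-like cells Hk2 stood at 0.635 (50 cells) and 0.299 (107 cells) in fresh 10x and at 1.86 (177 cells) in stored 10x. The stored level was above both. The fresh libraries were far from each other, a spread of Hk2 that hardly entered the edgeR test in this class. The log2 fold change was 2.11 ± 0.38 (SE, adjusted p = 6.60e-06, edgeR quasi-likelihood test), where 1.63% of 8335 genes were called. DESeq2 estimated 2.02 and did not call it (adjusted p = 1.00). In endothelial-like cells Hk2 had 0 UMIs in 171 cells of fresh 10x replicate 1, 4 UMIs in replicate 2 and 24 UMIs in stored 10x, the last from 6 of 88 cells. The fitted log2 fold change of 4.34 was called by edgeR's quasi-likelihood test (adjusted p = 2.22e-05), where 5.15% of 8849 genes were called, but it rests on these few UMIs. Without replicate 1 it was 2.58, with no test, and DESeq2 gave it no adjusted p.

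T and NK-like cells and mural-like cells had too few Hk2 UMIs to pass the filter. T and NK-like cells had levels of 0.170 and 0.0495 in fresh 10x and 0.142 in stored 10x, from 5, 1 and 6 UMIs. Mural-like cells had 4 and 1 UMIs in fresh 10x and 1 in stored 10x. No difference was detectable at this depth in either class. Of the members that passed the filter, edgeR's quasi-likelihood test called 0 of 5 in T and NK-like cells (1 with an unadjusted p under 0.05), where 1.79% of 5029 genes were called, and 0 of 6 in mural-like cells (0 unadjusted), where 1.03% of 5801 genes were called. DESeq2 called 0 in both.

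**Figure D2:**
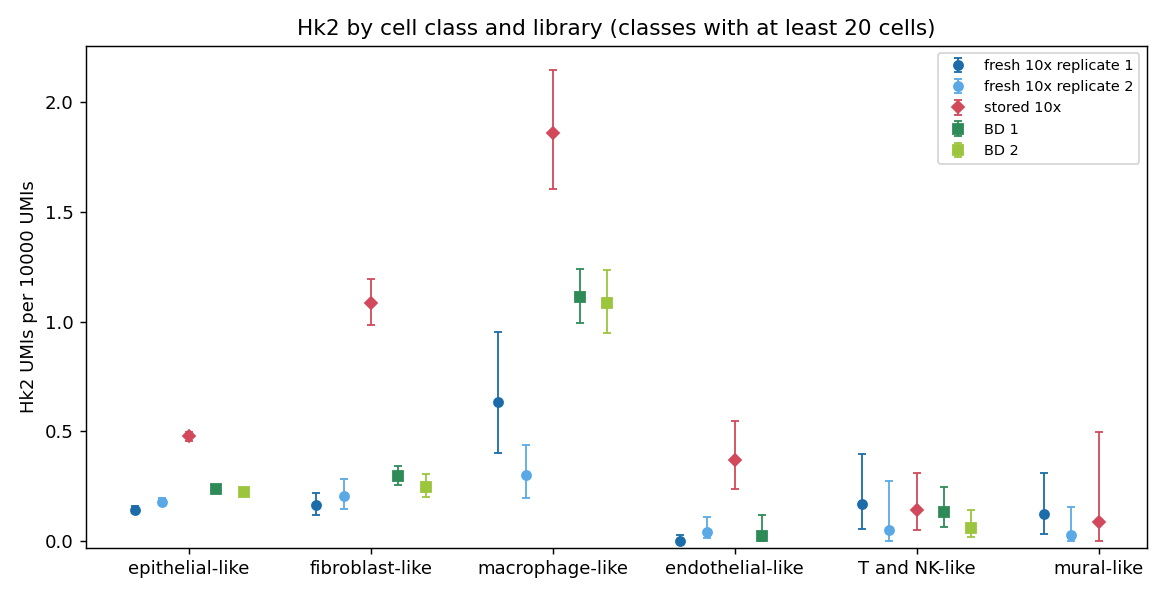
Hk2 level (UMIs per 10000 UMIs) in 6 cell classes and 5 libraries, shown where a class has at least 20 cells. Bars are exact 95% Poisson intervals for counting error, and the stored 10x point is the highest in epithelial-like, fibroblast-like, macrophage-like and endothelial-like cells.

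Whether the storage difference of Hk2 differed between classes was tested in 1 fit over the 3 10x libraries. The difference in fibroblast-like cells minus that in epithelial-like cells was 0.94 on the log2 scale (adjusted p = 0.184, edgeR quasi-likelihood test), in macrophage-like cells it was 0.69 (adjusted p = 1.00) and in endothelial-like cells 2.73 (adjusted p = 0.370). No member passed in any of these terms, where 2.34%, 0.134% and 0.268% of 11944 genes were called, and 3, 1 and 1 members had an unadjusted p under 0.05. Of the other glycolysis and hypoxia genes, those called in the fibroblast-like term were Aldoc (2.43), Car12 (2.11), Adm (1.86), Stc2 (-1.67) and Pfkp (1.01). In the stored library, RNA of epithelial markers in fibroblast-like cells was 11.1% of its level in epithelial-like cells, against 1.91% and 1.68% in fresh 10x. The Hk2 level of stored fibroblast-like cells was 227% of that in stored epithelial-like cells, and in fresh 10x it was 115% in both libraries. Stored Hk2 was thus higher in fibroblast-like cells than in the epithelial-like cells of the same library.

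Over whole libraries Hk2 was at 0.145 and 0.179 in fresh 10x and at 0.541 in stored 10x. The log2 fold change of 1.80 ± 0.15 did not pass in edgeR's quasi-likelihood test (adjusted p = 0.0663), where 0.130% of 15340 genes were called. No member passed, while 2 of 10 had an unadjusted p under 0.05, and DESeq2 called 1. In whole libraries fewer cells of a type and less RNA per cell cannot be told apart.

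The glycolysis members gave no call with storage in epithelial-like cells. Pgk1 was at 2.77 and 3.25 in fresh 10x and at 2.18 in stored 10x, a log2 fold change of -0.45 ± 0.14 (SE, adjusted p = 0.179, edgeR quasi-likelihood test). The stored level of Pgk1 lay below both fresh levels in 10 of 10 epithelial clusters, although the test over libraries did not pass. Aldoa was at 13.2 and 16.4 in fresh 10x and 12.2 in stored 10x, and Pkm was at 8.21 and 7.92 against 7.29. Both stored levels lay just below the fresh pair. Ldha (13.7 and 15.7 against 13.8) and Eno1 (4.30 and 3.31 against 3.95) fell inside the fresh range, as did Bnip3 (0.186 and 0.155 against 0.157). Ndrg1 (0.661 and 0.611 against 0.754), Slc2a1 (0.666 and 0.662 against 0.706) and Pdk1 (0.138 and 0.139 against 0.143) were slightly above the fresh pair, with adjusted p between 0.355 and 0.876 in edgeR's quasi-likelihood test. The median log2 fold change of the 10 members was -0.01, beside 0.00 for all genes tested.

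Of the other 68 genes of glycolysis, pyruvate entry, oxygen sensing and hypoxia targets, 59 were tested for storage in epithelial-like cells. EdgeR's quasi-likelihood test called 0 of them, 13 had an unadjusted p under 0.05 and DESeq2 called 1. In fibroblast-like cells 5 of 54 list genes were higher and 5 lower in stored 10x by the same test. Those with the largest log2 fold changes were Aldoc (2.62), Ndufa4l2 (-2.34), Car12 (2.22), Stc2 (-1.75) and Slc16a3 (-1.66). Aldoc and Car12 are among the leading genes of an epithelial cluster, and the share of epithelial marker RNA in stored fibroblast-like cells was the higher one given above. Aldoc was also called higher in stored endothelial-like cells (1.94) and stored T and NK-like cells (2.02), where epithelial marker RNA was 13.6% and 17.9% of the epithelial-like level, against 1.34% and 5.20%, and 3.61% and 9.89%, in fresh 10x. The part of this RNA in these values was not tested. The other called list genes in stored endothelial-like cells were Ndufa4l2 (-1.95), Ldhb (1.47), Ankrd37 (-1.45) and Errfi1 (1.03). In whole libraries 1 of 60 list genes was called, Ndufa4l2, a mitochondrial protein, which fell by 2.81 on the log2 scale (adjusted p = 0.0447, edgeR quasi-likelihood test). Mural-like cells, which held Ndufa4l2 at 12.9 and 16.2 UMIs per 10000 in fresh 10x and 10.1 in stored 10x, numbered 67 and 60 in fresh 10x and 27 in stored 10x.

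BD 1 was compared with fresh 10x in epithelial-like cells to ask how the platform affects these measurements. Pkm, Eno1 and Ldha were lower and Ndrg1 was higher in BD 1 than in fresh 10x, in a comparison that called a similar share of all genes. Pkm was at 8.21 and 7.92 in fresh 10x and at 5.14 in BD 1, a log2 fold change of -0.80 ± 0.13 (SE). Eno1 was at 4.30 and 3.31 in fresh 10x and at 2.47 in BD 1, a log2 fold change of -0.77 ± 0.19. Ldha was at 13.7 and 15.7 in fresh 10x and at 11.4 in BD 1, a log2 fold change of -0.52 ± 0.15. Each of the 3 BD 1 values lay below both fresh 10x values. Ndrg1 was at 0.661 and 0.611 in fresh 10x and at 0.912 in BD 1, a log2 fold change of 0.37 ± 0.12, but it was 0.612 in BD 2, at the level of fresh 10x. The call of Ndrg1 was lost in DESeq2 (adjusted p = 0.174) and when BD 2 was grouped with BD 1 by its title (adjusted p = 0.487, edgeR quasi-likelihood test). These 4 of 10 members passed edgeR's quasi-likelihood test (adjusted p 0.00342 for Pkm, 0.0160 for Eno1, 0.0276 for Ldha and 0.0396 for Ndrg1), where 44.0% of 14393 genes were called, so the share of members is close to that of all genes. Platform and tumour cannot be told apart, as each platform had its own libraries.

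The other members did not pass in the platform comparison. Aldoa was at 16.5 in BD 1, at the fresh replicate 2 level of 16.4, and its log2 fold change of 0.01 changed sign with the scaling. Slc2a1 (0.790), Hk2 (0.238), Pdk1 (0.179) and Bnip3 (0.240) were above both fresh 10x libraries without a call, and Pgk1 (2.85) was between them. Hk2 had an adjusted p of 0.0781 in edgeR's quasi-likelihood test, and with BD 2 grouped with BD 1 both Hk2 (0.40, adjusted p = 0.0197) and Pgk1 (-0.26, adjusted p = 0.0450) passed. Eno1b, listed beside Eno1 as a near-identical copy, was at 0.0801 and 0.0437 in fresh 10x and 0.228 in BD 1, a log2 fold change of 1.73. How reads shared by the copies were counted was not stated, which leaves the Eno1 value uncertain. Of the 60 other list genes tested, 15 were higher and 19 lower in BD 1 by edgeR's quasi-likelihood test, with the largest log2 fold changes for the kinase gene Pdk2 (2.32), Pfkfb4 (-2.05), Pfkfb3 (1.91), the pyruvate carrier gene Mpc1 (-1.57) and Gapdh (-1.52).

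BD 2 and BD 1 were compared as single libraries, with no test. In epithelial-like cells all 10 members had the lower value in BD 2, although the intervals of Hk2 and Pdk1 included 1, and 0 of 10 were past 1.5-fold, as were 1.56% of 11320 genes with at least 100 UMIs in either library. The median ratio of BD 2 to BD 1 over those genes was 0.946. Ndrg1 had the lowest ratio of the members at 0.671 (exact 95% interval for counting error 0.638 to 0.705), and Ldha followed at 0.723 (0.713 to 0.733). Hk2, the gene that rose in the stored 10x library, was at 0.238 in BD 1 and 0.224 in BD 2, a ratio of 0.941 (0.861 to 1.03). In macrophage-like cells Hk2 was at 1.11 and 1.08, and in fibroblast-like cells at 0.297 and 0.248. The Hk2 levels of the BD libraries were thus near each other in the 3 classes.

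Across cell classes, epithelial-like cells held the highest levels of most members. This was tested within libraries, with the library as a block, in edgeR's quasi-likelihood test over 11614 genes. In fibroblast-like cells 8 of 10 members were lower (39.8% of all genes were called lower). In endothelial-like cells 8 were lower and 1 higher (58.4% of all genes were called in either direction), and in macrophage-like cells 8 were lower and 2 higher (65.2%). All 10 were lower in T and NK-like cells (36.8% of all genes were called lower), and 7 in mural-like cells (22.2%). In the 10x libraries alone 7 were called lower in T and NK-like cells, without Bnip3 (adjusted p = 0.0891), Hk2 (0.125) and Pdk1 (0.878), and 5 in macrophage-like cells, without Pdk1, Pgk1 and Slc2a1, by the same edgeR test. Fewer of all genes were also called in these 10x fits, with the numbers given in the closing section. The median log2 fold change of the members was -1.39 in fibroblast-like, -1.10 in endothelial-like, -0.63 in macrophage-like, -1.34 in T and NK-like and -1.56 in mural-like cells. Over all genes tested these medians were -0.12, -0.15, -0.21, -0.30 and -0.21. With DESeq2's scaling the medians of all genes were 0.07, 0.05, -0.02, -0.02 and 0.05, a shift of more than 0.1 that leaves the directions of the called members as they are. The share of calls that were higher moved from 35.5% to 49.3% in T and NK-like cells and from 44.6% to 57.5% in mural-like cells with it.

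**Figure D3:**
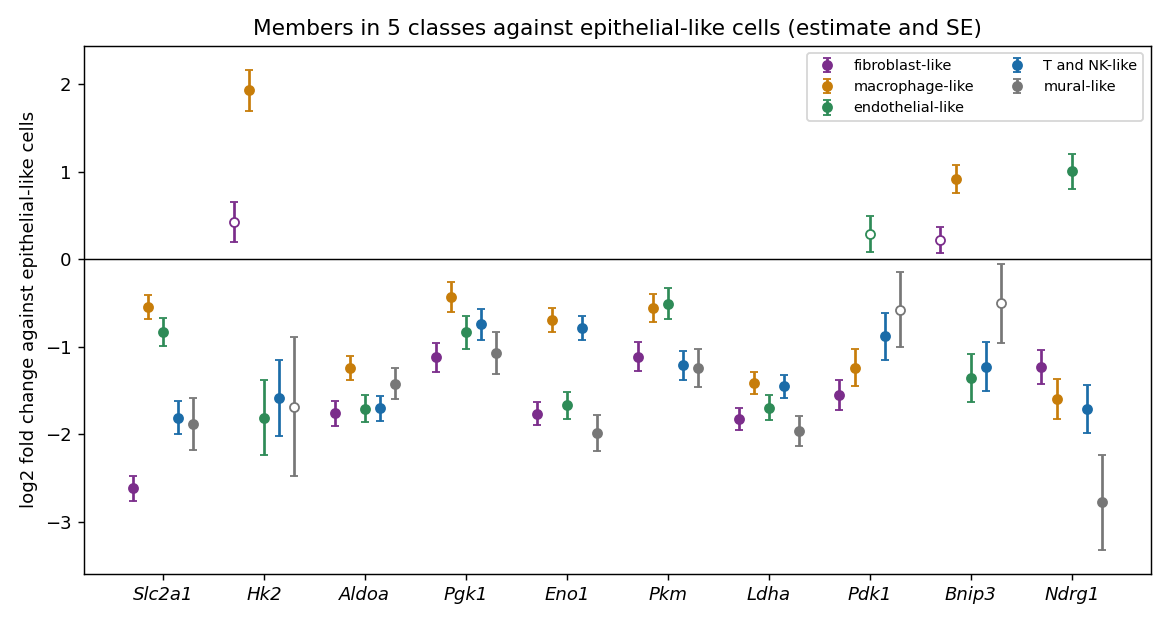
Log2 fold change of each member in 5 cell classes against epithelial-like cells, with SE, from the fit with the library as a block. Filled points passed an adjusted p of 0.05 and open points did not, and the filled points above 0 are Hk2 and Bnip3 in macrophage-like cells and Ndrg1 in endothelial-like cells.

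Macrophage-like cells were the exception for hexokinase. Their Hk2 level was 0.635 and 0.299 in fresh 10x, 1.86 in stored 10x and 1.11 and 1.08 in the BD libraries. In epithelial-like cells of the same libraries it was 0.142, 0.180, 0.477, 0.238 and 0.224. The macrophage-like value was the higher of the pair in every library, at 166% to 485% of the epithelial-like level, while epithelial marker RNA in macrophage-like cells was 8.21% to 18.8% of its level in epithelial-like cells. The log2 fold change was 1.93 ± 0.23 (SE, adjusted p = 6.09e-08, edgeR quasi-likelihood test). Ordered by mean level, Hk2 was at 0.998 ± 0.589 (SD, n = 5 libraries) in macrophage-like, 0.400 ± 0.386 in fibroblast-like, 0.252 ± 0.131 in epithelial-like and 0.111 ± 0.053 in T and NK-like cells. Hk2 was not called between fibroblast-like and epithelial-like cells (log2 fold change 0.42, adjusted p = 0.0966, edgeR quasi-likelihood test). It passed in 6 of 13 alternatives, among them RLE scaling with 0.60 and an adjusted p of 0.0197 in the same test. The fibroblast-like level was 115% of the epithelial-like one in both fresh 10x libraries, 227% in stored 10x and 125% and 111% in the BD libraries. The stored library set the upper end of the macrophage-like, fibroblast-like and epithelial-like levels.

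Bnip3 was likewise higher in macrophage-like cells. Its levels there were 0.193 and 0.218 in fresh 10x, 0.302 in stored 10x and 0.524 and 0.547 in the BD libraries. In epithelial-like cells they were 0.186, 0.155, 0.157, 0.240 and 0.206, so the macrophage-like level was the higher one in all 5 libraries, narrowly so in fresh 10x replicate 1. This gave a log2 fold change of 0.91 ± 0.16 (SE, adjusted p = 1.99e-05, edgeR quasi-likelihood test).

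Ndrg1 was highest in endothelial-like cells. Its levels there were 1.43 and 1.49 in fresh 10x, 1.73 in stored 10x and 1.85 in BD 1, and BD 2 had too few of these cells. In epithelial-like cells the levels were 0.661, 0.611, 0.754 and 0.912 in the same libraries. All 4 endothelial-like values lay above all 4 epithelial-like ones, and the log2 fold change was 1.00 ± 0.20 (SE, adjusted p = 0.000125, edgeR quasi-likelihood test). The mean over libraries was 1.63 ± 0.20 (SD, n = 4) in endothelial-like and 0.710 ± 0.127 (SD, n = 5) in epithelial-like cells, then 0.314 ± 0.122 in fibroblast-like, 0.239 ± 0.161 in T and NK-like and 0.237 ± 0.101 in macrophage-like cells. The last 3 overlapped each other.

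The GLUT1 gene Slc2a1 separated the classes widely. It was at 0.696 ± 0.056 (SD, n = 5) in epithelial-like, 0.473 ± 0.092 in macrophage-like, 0.442 ± 0.102 (n = 4) in endothelial-like, 0.230 ± 0.053 in T and NK-like and 0.117 ± 0.034 in fibroblast-like cells. Fibroblast-like cells had 0.105 and 0.104 in fresh 10x, 0.179 in stored 10x and 0.0994 and 0.0999 in the BD libraries, in each library the lowest of the classes with at least 20 cells. The log2 fold change of fibroblast-like against epithelial-like cells was -2.62 ± 0.14 (SE, adjusted p = 5.91e-15, edgeR quasi-likelihood test), second in size among the called members to Ndrg1 in mural-like cells (-2.78, and -4.59 without stored 10x). Slc2a1 was lower than in epithelial-like cells in all 5 classes, although in the 10x libraries alone its macrophage-like value of -0.43 was not called (adjusted p = 0.0671, edgeR quasi-likelihood test).

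Among the glycolysis members, Aldoa and Ldha had log2 fold changes between -1.24 and -1.97 in all 5 classes, all called by edgeR's quasi-likelihood test. Aldoa was at 13.2, 16.4, 12.2, 16.5 and 13.5 in epithelial-like cells of fresh 10x replicates 1 and 2, stored 10x, BD 1 and BD 2, and at 3.68, 3.74, 4.48, 4.87 and 4.89 in fibroblast-like cells. The fibroblast-like values lay below all epithelial-like values, and the same held for Ldha, with 8.24 as the lowest epithelial-like level and 4.26 as the highest fibroblast-like one. Pgk1 and Pkm differed less. In macrophage-like cells Pgk1 had a log2 fold change of -0.43 (adjusted p = 0.0280, edgeR quasi-likelihood test), which was lost in 11 of 13 alternatives, for example with DESeq2 (adjusted p = 0.145). Among these, leaving out 1 library gave -0.28 without fresh 10x replicate 1, -0.24 without replicate 2, -0.45 without stored 10x and -0.41 without BD 2 (adjusted p = 0.153, 0.310, 0.0542 and 0.0942, edgeR quasi-likelihood test). In endothelial-like cells Pkm had -0.51 (adjusted p = 0.0148), which was lost in 7 of 13 alternatives, for example in DESeq2 (adjusted p = 0.0536) and in the 10x libraries alone (adjusted p = 0.175, edgeR quasi-likelihood test). Without fresh 10x replicate 2, stored 10x or BD 1 the adjusted p of Pkm was 0.0704, 0.0504 and 0.0543 in the same test. Pdk1 was lower in fibroblast-like (-1.55) and macrophage-like cells (-1.24), but in the 10x libraries alone the macrophage-like value was -0.81 and not called (adjusted p = 0.0540, edgeR quasi-likelihood test). In endothelial-like cells Pdk1 was at 0.29 and not called (adjusted p = 0.238, same test). In the 10x libraries alone it was called higher there (0.63, adjusted p = 0.0225, same test). Without fresh 10x replicate 2, Pkm in macrophage-like cells was -0.42 and not called (adjusted p = 0.0610, edgeR quasi-likelihood test). In T and NK-like cells the Pdk1 value of -0.88 was lost without BD 2 (-0.50, adjusted p = 0.202, edgeR quasi-likelihood test) and without BD 1 (-0.69, adjusted p = 0.0739), and Pdk1 was at -0.09 in the 10x libraries alone.

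Related genes of the lists were called in both directions in each class. Of 57 list genes tested, 14 were higher and 27 lower in macrophage-like cells, 21 and 30 in fibroblast-like, 11 and 27 in endothelial-like, 8 and 28 in T and NK-like and 12 and 18 in mural-like cells, by edgeR's quasi-likelihood test. Of all 11614 genes, 65.2% were called in either direction in macrophage-like and 58.4% in endothelial-like cells. In fibroblast-like, T and NK-like and mural-like cells 39.8%, 36.8% and 22.2% of all genes were called lower. Whether the lists differ from these shares was not tested. In macrophage-like cells the largest log2 fold changes were those of Hk3 (8.97), the lactate transporter gene Slc16a3 (5.24), Pfkfb4 (5.02), the glucose transporter gene Slc2a3 (3.73) and the carbonic anhydrase gene Car12 (-3.38). Fibroblast-like cells were marked by Lox (9.31), Ndufa4l2 (5.98) and P4ha2 (4.97), both Lox and P4ha2 being enzymes of collagen maturation, and by lower Aldoc (-4.68) and Car12 (-4.22). Endothelial-like cells had more Ndufa4l2 (5.29) and Epas1 (4.55), which encodes HIF-2alpha, and less Aldoc (-4.09), Car12 (-3.58) and Ldhb (-3.41). Mural-like cells had more Ndufa4l2 (11.39), Slc2a3 (6.003) and Epas1 (5.003) and less Aldoc (-5.41), while Car9 had 0 UMIs in them in all 5 libraries. In T and NK-like cells Slc2a3 (5.38) and Eno3 (2.78) were higher and Ankrd37 (-2.91), Aldoc (-2.68) and Ldhb (-2.59) lower.

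Within the tumour epithelium the members did not vary as a block. The 10 epithelial-like clusters with at least 20 cells in every library were compared by the mean over the 5 libraries, as a description. Aldoa was highest in the cluster led by the secretory genes Scgb1b27 and Pip, at 27.8 and 47.9 in fresh 10x, 29.2 in stored 10x and 42.9 and 28.8 in the BD libraries. It was lowest in the basal cluster led by Krt5 and Krt14, at 4.85, 9.18, 6.38, 8.03 and 5.07. The ranges did not overlap, and the means were 35.3 and 6.70. The interferon-response cluster led by Ifit1 and Isg15 came next for Aldoa at 30.02 and held the highest means of Pgk1 (4.01), Eno1 (4.30), Pkm (8.44) and Bnip3 (0.347).

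Ndrg1 followed another order. It was highest in the milk gene cluster led by Csn2, at 1.46 and 1.502 in fresh 10x, 2.14 in stored 10x and 2.61 and 2.29 in the BD libraries. It was lowest in the cluster led by Tspan1 and Aqp5, at 0.264, 0.0948, 0.241, 0.199 and 0.114. These means were 2.00 and 0.183, a ratio of 10.9, and the ranges were far apart.

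Slc2a1 was highest in the basal cluster, where Aldoa was lowest. Its levels there were 1.47 and 1.63 in fresh 10x, 1.52 in stored 10x and 2.05 and 1.92 in the BD libraries, and every library had the basal cluster above its epithelial-like average of 0.655 to 0.790. Among the 10 clusters it was lowest in the one led by Npy and C530043A13Rik, at 0.471 on average. That cluster also had the lowest means of Hk2 (0.103) and Pgk1 (1.63), and its cells had the fewest UMIs of the epithelial-like clusters (median 6499). Ldha was spread more evenly, from 7.09 in the basal cluster to 14.7 in the milk gene cluster. Pdk1 was the most even, with a ratio of 1.48 between its highest and lowest cluster means. The cycling cluster led by Ube2c and Top2a had the lowest mean of Bnip3 at 0.103 and a high Pgk1 of 3.81.

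**Figure D4:**
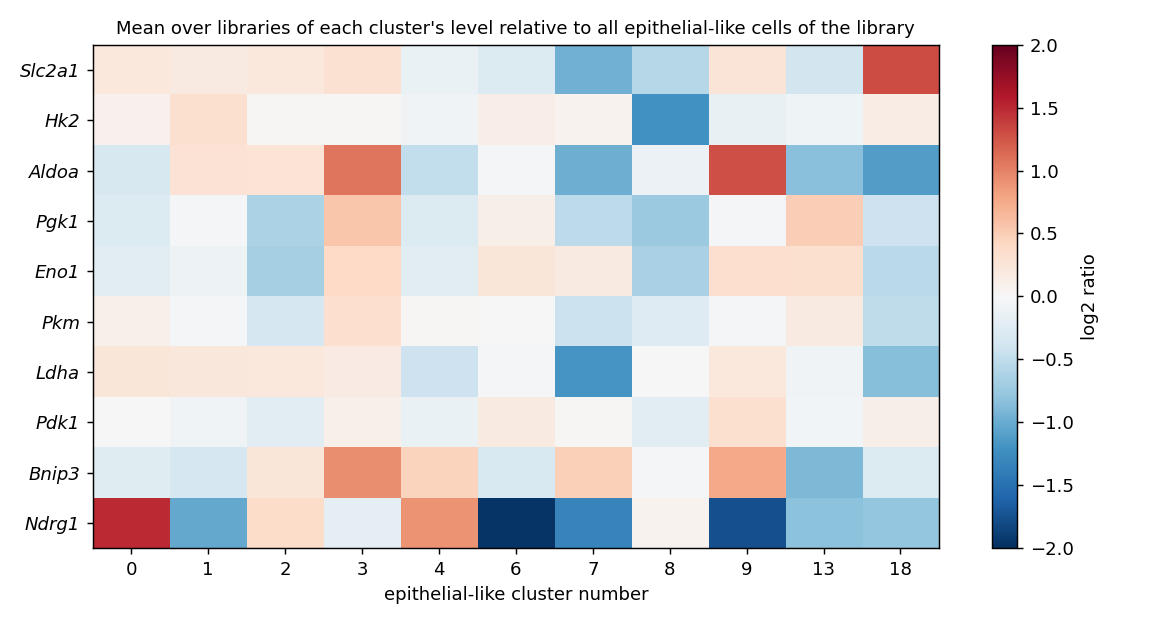
Level of each member in 11 epithelial-like clusters relative to all epithelial-like cells of the same library, averaged over libraries with at least 20 cells (4 libraries for cluster 7, 5 for the rest), as a log2 ratio with colours limited to -2 and 2. Ndrg1 is high in cluster 0 (milk genes), Aldoa in clusters 3 (interferon response) and 9 (secretory), and Slc2a1 in cluster 18 (basal).

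Aldoa had the highest variance-to-mean ratio from cell to cell, a ratio that grows with the level, and the highest mean. In epithelial-like cells thinned to 3000 UMIs this ratio was 9.49 and 12.4 in fresh 10x, 7.40 in stored 10x and 9.72 and 8.60 in the BD libraries, where sampling alone gives 1. The 10% of cells with the most Aldoa held 40.2% to 44.4% of its UMIs, against 58.4% to 68.5% for Slc2a1, 66.6% to 80.6% for Ndrg1 and 91.1% to 100% for Hk2, genes with lower means. The ratio for Ldha was 2.32 to 2.82 and that for Ndrg1 1.48 to 1.99. Hk2 had ratios of 1.09 and 0.961 in fresh 10x and 1.61 in stored 10x, where its mean of 0.142 UMIs per thinned cell was also above the 0.0456 and 0.0638 of fresh 10x. With a Hk2 UMI in 4.33% and 6.31% of fresh 10x cells, the top 10% of cells necessarily held 100% of its UMIs there. In stored 10x 11.3% of cells had a Hk2 UMI, and the top 10% held 91.1%. This share therefore follows detection and does not measure heterogeneity here.

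Members were weakly correlated across single epithelial-like cells. Aldoa and Ldha had the highest Pearson r, with a mean of 0.379 over libraries and a range of 0.348 to 0.417, on log-transformed thinned counts. Pgk1 with Pkm (0.197) and Pgk1 with Eno1 (0.189) came next. The median over all pairs of members was 0.049 and 0.076 in fresh 10x, 0.031 in stored 10x and 0.026 and 0.030 in the BD libraries. Ndrg1 had a mean r of -0.035 with Eno1 and -0.002 with Aldoa. The summed glycolysis members and the summed hypoxia members had r between 0.065 and 0.169. These points share a library and a depth, and in counts as sparse as those of Hk2, Pdk1 and Bnip3 a weak r is little informative.

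The genes most like the members were ranked by their lowest r over the 5 libraries among 5238 genes. For the glycolysis sum they were Aqp5 (0.284), Cd81 (0.189), Kcnn4 (0.184), Pgp (0.181), Tspan8 (0.177), Clic6 (0.174), Ncald (0.173) and Krt18 (0.167). Pgp encodes phosphoglycolate phosphatase and Aqp5 a water channel of secretory epithelium. For the hypoxia sum they were Csn1s1 (0.144), Csn2 (0.121), Ltf (0.104), Mfge8 (0.102), Clu (0.0886), Fosb (0.0862), Itm2b (0.0844) and Ier3 (0.0812). Csn1s1, Csn2, Ltf and Mfge8 are genes of milk or secretory differentiation, and the milk gene cluster is also the one with the most Ndrg1. Of the other list genes, Pfkl (0.154) and Pgam1 (0.135) were closest to the glycolysis sum and Vegfa (0.0460) to the hypoxia sum.

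Cells high for the hypoxia members were then set against the rest of the epithelial-like cells, to ask whether genes not used for the split went with them. The high range was about the top 10% of cells of each library by the summed thinned UMIs of the 5 hypoxia members, and because of ties it held 5.54% to 12.7% of cells. A total of 2 or 3 UMIs put a cell in it, and 743 cells of BD 2 lay 1 UMI below, so it is a range of a score and not a cell type. Slc2a1 and Ndrg1 supplied most UMIs of this score, with library means of 0.210 to 0.246 and 0.178 to 0.271 per thinned cell. Those of Hk2, Pdk1 and Bnip3 were 0.0456 to 0.142, 0.0350 to 0.0544 and 0.0494 to 0.0738. The 5 glycolysis members were higher in the high range in 5 of 5 libraries. Pgk1 was 1.75-fold and 1.71-fold higher in fresh 10x, 1.29-fold in stored 10x and 1.16-fold and 1.11-fold in the BD libraries. Aldoa was 1.46-fold and 1.56-fold higher in fresh 10x, 1.16-fold in stored 10x and 1.02-fold and 1.41-fold in the BD libraries. The fresh 10x libraries had the larger ratios for Pgk1, and BD 1 had almost none for Aldoa.

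**Figure D5:**
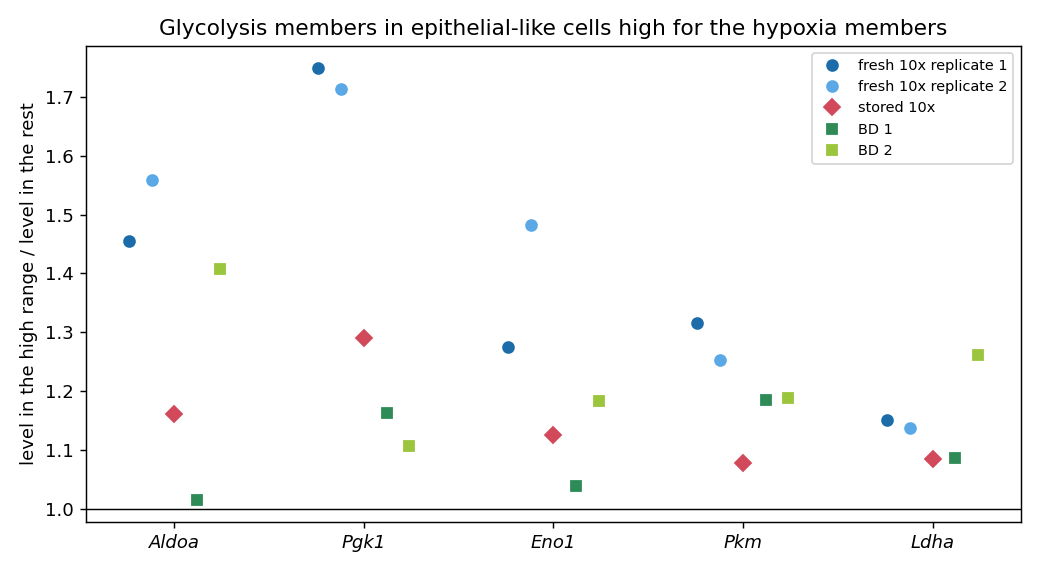
Ratio of the level in epithelial-like cells high for the hypoxia members to the level in the rest, for the 5 glycolysis members in the 5 libraries, after thinning to 3000 UMIs. All 25 points lie above 1, from 1.02 for Aldoa in BD 1 to 1.75 for Pgk1 in fresh 10x replicate 1.

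All 5 glycolysis members were called by edgeR's quasi-likelihood test with the library as a block, where 6.34% of 10937 genes were called and 3.28% were called higher. The log2 fold changes were 0.45 for Pgk1 (adjusted p = 0.000137), 0.37 for Aldoa (1.07e-05), 0.28 for Eno1 (0.0103), 0.25 for Pkm (0.00403) and 0.18 for Ldha (0.0277). The count fell to 2 without fresh 10x replicate 1, to 3 without fresh 10x replicate 2 and to 2 with 2000 UMIs per cell, with Pgk1 and Aldoa called in each. Of 50 other list genes 14 were higher and 0 lower in the high range by the same test, and DESeq2 called 6. Ankrd37 (1.36), Pfkfb3 (1.28), Vegfa (1.08), Angptl4 (0.91) and Ero1l (0.59) had the largest log2 fold changes among the called ones. The lists were chosen as glycolysis and hypoxia genes, so the link of these genes to hypoxia was set by that choice. The milk gene cluster made up 13.3% to 27.3% of the high range and 6.21% to 12.5% of the rest, and the median UMI total per cell before thinning was lower in the high range in every library (10470 against 13198.5 in fresh 10x replicate 1, 10723 against 11204 in BD 2). The median share of mitochondrial UMIs was 6.28% in the high range against 6.69% in the rest and 7.45% against 7.40% in fresh 10x, 6.92% against 7.23% in stored 10x, 14.4% against 15.8% in BD 1 and 17.4% against 19.6% in BD 2. Across cells the glycolysis sum had r between -0.116 and -0.299 with that share. Among cells with at most 20% mitochondrial UMIs all 5 glycolysis members were still called, with log2 fold changes of 0.25 to 0.60. The part of cluster and depth in these differences was not tested.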

How the data were processed

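Single-cell RNA was measured in 5 libraries, and the deposited values are raw UMI counts per gene and cell, with Cell Ranger 3.0.1 and build mm10 named in the submitters' processing notes without a role. The counting of reads shared by gene copies and the BD Rhapsody software were not given in the sources used here. Cells with at least 200 genes were clustered (scanpy 1.11.5, 2000 variable genes, 30 principal components, 15 neighbours, Leiden resolution 1.0) without the members and the list genes. Doublets called by scrublet were left out, and cells with over 0.5% haemoglobin UMIs were set aside, a step chosen after seeing the data.

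Counts were summed per library and class with at least 20 cells and tested in edgeR 4.0.16 (quasi-likelihood, TMM, filterByExpr, Benjamini-Hochberg over all genes tested, threshold 0.05). SEs are the log2 fold change over the root of the F statistic. DESeq2 1.42.0 was an alternative. The tests were checked on data simulated with the same spread for every gene. Of 2-fold changes, 58% were recovered for storage in epithelial-like cells, 76.5% for macrophage-like against epithelial-like cells and 70.2% for the high range. Of 4-fold changes, 99.5%, 92.3% and 94.4% were recovered. A difference of 2-fold or less without a call can therefore be a missed one. P-values measure only the spread between these libraries, and edgeR's quasi-likelihood test pools that spread over genes. In the storage and platform fits, with 1 residual degree of freedom, p-values therefore do not rest on a gene's own spread alone. In the storage fits of macrophage-like, endothelial-like, T and NK-like and mural-like cells a gene's own spread hardly entered them. The p-values there were almost those of a normal distribution. Fractions of cells and correlations used cells thinned to 3000 UMIs, which left out 64 and 59 cells of fresh 10x, 280 of stored 10x, 2 of BD 1 and 101 of BD 2. Intervals cover counting error only.

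The members and lists were chosen with earlier results of these data known. All members are named. Of 4 lists (other glycolysis genes 25, pyruvate entry 11, oxygen sensing 8, other hypoxia targets 24), up to 5 called genes with the largest log2 fold change are named per comparison. The 8 genes most like each member sum are those with the highest lowest r over the libraries.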

Additional observations from a re-analysis of the deposited data

How the results depend on the processing

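The rise of Hk2 in stored epithelial-like cells was called under all 7 alternatives that gave a test (log2 fold change 1.57 to 1.59), and leaving out fresh 10x replicate 1 or 2 gave 1.43 and 1.73 with no test, since no residual degree of freedom was left. Over whole libraries no member was called, but 1 was (Hk2) with RLE factors, with DESeq2 and with a minimum of 2577 UMIs a cell. In stored macrophage-like and endothelial-like cells 1 member was called by edgeR and 0 by DESeq2. In stored fibroblast-like cells 2 were called, against 1 with DESeq2 and 1 in the Clec3b and Efemp1 cluster alone. These alternatives in the other classes were chosen after seeing the data. The glycolysis members called in cells high for the hypoxia members numbered 5, against 2 at 2000 UMIs per cell, and leaving out 1 library gave 2 to 5. The cause of these differences was not tested.

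Of 1187 alternative log2 fold changes 27 changed sign, none of them called. In fits with an adjusted p 8 did so, all close to 0. Ldha over whole stored libraries was -0.0024 with RLE factors and -0.0024 with DESeq2, and in stored mural-like cells it was -0.019 without a filter on low counts. Aldoa in the platform comparison was -0.023 with at most 20% mitochondrial UMIs, -0.013 with RLE factors, -0.013 with DESeq2 and -0.10 with BD 2 grouped with BD 1, which also gave -0.00078 for Slc2a1. Other sign changes came without fresh 10x replicate 1 or 2, in fits with no test, and were not all near 0. Eno1 in stored epithelial-like cells was 0.29 without replicate 1 and -0.14 without replicate 2. Pgk1 in stored T and NK-like cells was -0.49 and 0.29.

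Without the library as a replicate block the class comparisons called 7 members in macrophage-like, 8 in fibroblast-like, 7 in endothelial-like, 9 in T and NK-like and 7 in mural-like cells, against 10, 8, 9, 10 and 7 with it. The share of all genes called without the block is not given here, so these counts show nothing particular to the members. No paired analysis was possible for the storage and platform comparisons because the stored group and BD 1 have 1 library each. The numbers of genes called over all genes moved by more than 1.5 times in several comparisons. Storage over whole libraries called 20 genes, 400 with DESeq2, 84 with RLE factors, 41 with the UMI minimum and 2 without a filter. Storage in epithelial-like cells called 117, against 294 with RLE factors, 186 with DESeq2, 218 with the UMI minimum, 219 with doublets kept and 907 without a filter. DESeq2 called 243 in place of 1028 in stored fibroblast-like cells, 7 in place of 136 in macrophage-like, 54 in place of 456 in endothelial-like, 20 in place of 90 in T and NK-like and 3 in place of 60 in mural-like cells. In fibroblast-like cells no filter gave 1756, and the Clec3b and Efemp1 cluster alone 182. The range comparison called 693, against 277 with DESeq2, 342 with at most 20% mitochondrial UMIs, 284 at 2000 UMIs, 360 without BD 1 and 432 without BD 2. With the 10x libraries alone the class comparisons called 4653 in place of 7567 genes in macrophage-like and 4108 in place of 6623 in T and NK-like cells. The median correlation between members was 0.043 and 0.032 to 0.049 under the alternatives.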
